A study of Mus musculus with 2 samples.

Results

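The clustered histone genes of 2 single-cell RNA libraries from the embryonic mouse face are described here. The members were the rows whose symbol starts with Hist1h, Hist2h, Hist3h or Hist4h, which gave 69 genes of the 27998 genes listed for the wild-type library and of the 28000 listed for the other. By the protein they encode, 6 were H1 genes, 19 were H2A, 19 were H2B, 12 were H3 and 13 were H4. The tissue was the lambdoid junction, dissected from E11.5 embryos, at which the nasal and maxillary prominences of the face come together. The wild-type library came from C57BL/6J embryos, and the second library came from embryos with the genotype Crect; ROSA26-lacZ, also labelled C57BL/6J. Crect is a Cre transgene and ROSA26-lacZ a reporter allele, and no source used here names the promoter that drives Crect. Each library pooled 4 to 5 embryos, so there was 1 library per genotype, and nothing below tests one genotype against the other. Levels are given as unique molecular identifiers (UMIs) of a gene per 1000000 UMIs of the same cells, abbreviated CPM, and each UMI stands for 1 captured RNA molecule.

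Histones are the proteins that package DNA. H2A, H2B, H3 and H4 form the nucleosome core, and H1 binds the linker DNA between nucleosomes. The replication-dependent histone genes lie in clusters and are transcribed mainly while DNA is copied in S phase. Their messages usually end in a conserved stem-loop, bound by the protein Slbp, in place of a poly(A) tail, and a few members are also made as polyadenylated messages. A kit that primes on poly(A), as used here, therefore captures these genes through polyadenylated molecules or through stretches rich in A, and the UMI counts below are counts of captured molecules rather than of all histone messages.

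Of the 69 members, 53 lay on chromosome 13, 11 on chromosome 3, 2 on chromosome 11 and 1 (Hist4h4) on chromosome 6 in the GENCODE annotation of mm10, and 2 (Hist1h2bm and Hist1h2bh) were not matched to it. An annotated coding transcript was found for 65 members, and 50 of these had a 3′ untranslated region of 30 bases or more. A match to the histone stem-loop consensus was found on the transcript strand after the stop codon in 41 members, at 21 to 58 bases past it with a median of 32. The transcript was annotated for 100 bases or more beyond the stem-loop in 21 of them, and 15 had a polyadenylation signal (AATAAA or ATTAAA) in that stretch. The following stem-loops are shown as examples from the 4 core classes and H1, from members whose values are given below, with the 16 bases of the match in capitals and the transcript strand written 5′ to 3′.
Hist1h2ap, chr13:21833029-21833044, minus strand: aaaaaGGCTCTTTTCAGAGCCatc
Hist2h2ac, chr3:96220418-96220433, minus strand: aaaaaGGCTCTTTTTAGAGCCaccaa
Hist1h1e, chr13:23621782-23621797, minus strand: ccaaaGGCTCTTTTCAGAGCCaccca
Hist1h3c, chr13:23745047-23745062, minus strand: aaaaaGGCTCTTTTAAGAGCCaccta
Hist1h4i, chr13:22040966-22040981, minus strand: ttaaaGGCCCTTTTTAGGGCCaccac
Hist3h2ba, chr11:58949349-58949364, plus strand: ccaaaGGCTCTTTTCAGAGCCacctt
Hist3h2a, chr11:58955172-58955187, plus strand: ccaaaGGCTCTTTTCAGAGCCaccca
The annotated Hist1h2ap message ends 3 bases past its stem-loop, whereas that of Hist3h2ba runs 169 bases past it, that of Hist1h4i 330, that of Hist1h1e 1153 and that of Hist3h2a 1643. Hist1h2bc and Hist2h2be had no match to the consensus and carried 3′ untranslated regions of 742 and 2192 bases, each with a polyadenylation signal. Hist1h1b was annotated with 0 bases of 3′ untranslated region, so its stem-loop could not be looked for.

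The members also differed in their richest stretch of A. The 20 bases with the most A are shown for the member with the most UMIs in each library, with A in capitals.
Hist1h1b, coding sequence, 14 A: AAgAAgAAgAcAAcgAAAAA
Hist1h2ap, 3′ untranslated region, 16 A: ccgAAAAgAAAAAAAAAAAA
The same stretch stands in Hist1h2ao, which is a near-copy of Hist1h2ap. Of all words of 50 bases in a member's transcript, a median of 49.5% also occurred in another member, and 32 members shared 50% or more. Hist1h2ap shared 93.1% of its words and Hist1h2ag 78.9%, whereas Hist1h1b and Hist3h2ba shared 0%. Reads from the shared parts cannot be assigned to 1 copy, so the counts of single H2A, H2B, H3 and H4 members are uncertain in a way that those of Hist1h1b and Hist3h2ba are not.

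Promoters of 62 members were found in RefSeq (GRCm38.p6), each as 250 bases before to 50 after the start. Missing were Hist1h2al, Hist1h2ap, Hist1h2bc, Hist1h3a, Hist1h3f, Hist2h2be and Hist2h4. The CCAAT box (CCAAT, either strand) stood in all 6 H1, 17 H2A, 17 H2B and 10 H3 promoters but in 3 of 12 H4 promoters, against 37.4% of all promoters of this length. The octamer ATTTGCAT, known from H2B genes and searched on both strands, stood in 7 of 17 H2A and 8 of 17 H2B promoters and in none of the H1, H3 and H4 promoters, against 1.74% of all promoters. TATAAA, on either strand, stood in 35 of the 62 promoters, against 13.6% of all. These are matches of letters, not binding sites. In 10 pairs of members the windows overlapped, so 1 motif can count for both. Of the pairs, 9 joined an H2A to an H2B gene transcribed in the opposite direction. The remaining pair was the 2 genes with the symbol Hist2h2bb, which were matched to the same 300 bases. That window is counted for both genes among the 62 promoters and the 17 H2B promoters. A promoter is printed for the leading H1 member, an H2A member that shares its window with an H2B, an H4 member and a member that differed between ectoderm-like and mesenchyme-like cells, with matches in capitals.
Hist1h1b, chr13:21780576-21780875, minus strand: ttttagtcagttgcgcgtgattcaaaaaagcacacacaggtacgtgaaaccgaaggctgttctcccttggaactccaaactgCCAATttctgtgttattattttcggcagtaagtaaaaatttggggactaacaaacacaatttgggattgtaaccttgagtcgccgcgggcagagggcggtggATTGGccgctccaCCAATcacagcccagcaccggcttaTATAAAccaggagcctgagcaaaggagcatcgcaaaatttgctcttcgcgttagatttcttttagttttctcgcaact
Hist1h2ae, chr13:23571171-23571470, minus strand: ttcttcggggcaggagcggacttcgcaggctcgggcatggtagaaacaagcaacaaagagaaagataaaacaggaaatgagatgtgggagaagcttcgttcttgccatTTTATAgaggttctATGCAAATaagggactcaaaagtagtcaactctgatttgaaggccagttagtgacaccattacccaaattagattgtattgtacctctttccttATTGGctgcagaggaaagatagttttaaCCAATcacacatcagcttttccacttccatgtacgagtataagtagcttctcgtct
Hist1h4i, chr13:22041313-22041612, minus strand: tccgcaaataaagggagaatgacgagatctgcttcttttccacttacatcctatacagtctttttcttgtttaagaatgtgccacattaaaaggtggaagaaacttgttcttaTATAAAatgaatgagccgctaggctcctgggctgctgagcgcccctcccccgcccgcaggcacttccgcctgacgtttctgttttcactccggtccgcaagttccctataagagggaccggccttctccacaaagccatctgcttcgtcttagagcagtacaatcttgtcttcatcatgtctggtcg
Hist3h2ba, chr11:58948661-58948960, plus strand: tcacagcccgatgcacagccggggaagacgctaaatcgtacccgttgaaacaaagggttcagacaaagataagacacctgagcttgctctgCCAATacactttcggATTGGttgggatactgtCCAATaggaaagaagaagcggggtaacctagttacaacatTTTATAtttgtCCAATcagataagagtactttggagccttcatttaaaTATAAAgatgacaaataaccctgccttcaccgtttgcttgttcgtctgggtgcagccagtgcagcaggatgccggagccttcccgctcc
The Hist1h1b and Hist3h2ba windows hold CCAAT and TATAAA on 1 strand or the other, the Hist1h2ae window also holds the octamer, and the Hist1h4i window holds TATAAA alone.

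The files held 7966 wild-type and 6894 Crect; ROSA26-lacZ barcodes, where the study states about 8000 and about 7000 cells. With at most 10% of UMIs in mitochondrial genes, 7909 and 6687 cells remained, with medians of 14112 and 17581 UMIs, and 71 barcodes occurred in both libraries. Clusters of cells, made without histone or cell cycle genes, were named from markers as mesenchyme-like (6210 and 5497 cells), ectoderm-like (1069 and 804), endothelium-like (236 and 133) and erythroid-like (229 and 138), with smaller classes besides. Cre UMIs were present in 454 of 804 ectoderm-like cells (median 16671 UMIs) and 60 of 5497 mesenchyme-like cells (median 17464 UMIs) of the library labelled Crect; ROSA26-lacZ. The wild-type gene list has no Cre or lacZ row.

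The histone members made up a small part of each library, and the 2 libraries drew on different members. The wild-type library held 184075 member UMIs, 0.146% of its total, and the Crect; ROSA26-lacZ library 119450, 0.0945%, with medians of 12 and 11 per cell. In wild type, H1 genes gave 624 CPM and 42.8% of member UMIs, H2A 447 CPM, H4 191, H2B 129 and H3 66.2. In Crect; ROSA26-lacZ, H2A gave 569 CPM and 60.2% of member UMIs, H2B 115, H1 106, H4 82.6 and H3 72.3. H1 and H4 thus stood lower in Crect; ROSA26-lacZ, while H2B and H3 lay closer together. The higher H2A sum in Crect; ROSA26-lacZ rested on Hist1h2ap: the other 18 H2A genes gave 352 CPM in wild type and 212 in Crect; ROSA26-lacZ. Hist1h1b, a linker histone gene, led the wild-type library with 42685 UMIs (23.2% of its member UMIs), followed by the linker histone gene Hist1h1e with 26846 and the H2A gene Hist1h2ae with 16983. Hist1h2ap, another H2A gene, led the Crect; ROSA26-lacZ library with 45144 UMIs (37.8%), followed by Hist1h1b with 6195 and Hist1h2ag with 6103. By locus, the 55 Hist1 genes gave 165536 and 108469 UMIs, the 11 Hist2 genes 8550 and 2504, the 2 Hist3 genes 9362 and 7970, and Hist4h4 627 and 507.

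Some members were hardly captured. Hist1h2bq had no UMI in either library, and Hist1h2br and Hist1h2ba, the second a gene known from testis, had none in wild type and 3 and 2 UMIs in Crect; ROSA26-lacZ. A count of 0 allows up to 3 UMIs per library. The testis linker histone gene Hist1h1t had 5 and 8 UMIs. In all, 13 members had fewer than 50 UMIs in at least 1 library.

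Of the other 56 members, 17 stood at least 1.5-fold higher in wild type, 4 at least 1.5-fold higher in Crect; ROSA26-lacZ and 35 within 1.5-fold. Over all 13690 genes with 50 UMIs in both libraries, 8.5% stood 1.5-fold higher in wild type and 3.94% in Crect; ROSA26-lacZ. The median ratio of Crect; ROSA26-lacZ to wild type was 0.914 over the members and 0.962 over all these genes. Hist1h1b was measured at 338 CPM in wild type and 49.0 in Crect; ROSA26-lacZ, a ratio of 6.90 (95% exact interval 6.71 to 7.08, counting error only). Hist1h1a stood 6.42-fold, Hist1h1e 6.21-fold, Hist1h1d 4.27-fold and Hist1h1c 1.84-fold higher in wild type, which makes 5 of the 6 H1 genes. Among H2A genes, Hist2h2ac (5.52-fold), Hist1h2an (3.52-fold) and Hist1h2ae (2.98-fold) led in the same direction, and among H4 genes Hist1h4d (4.39-fold) and Hist1h4c (2.17-fold). Hist1h2ap went the other way, from 95.01 CPM in wild type to 357 in Crect; ROSA26-lacZ, a ratio of 3.76 (3.68 to 3.84), as did Hist1h2ao (3.53-fold), the H2B gene Hist1h2bp (2.97-fold) and Hist1h2ad (1.58-fold). No H3 gene passed 1.5-fold, with 10 of 12 within it and the other 2 under 50 UMIs.

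**Figure D1:**
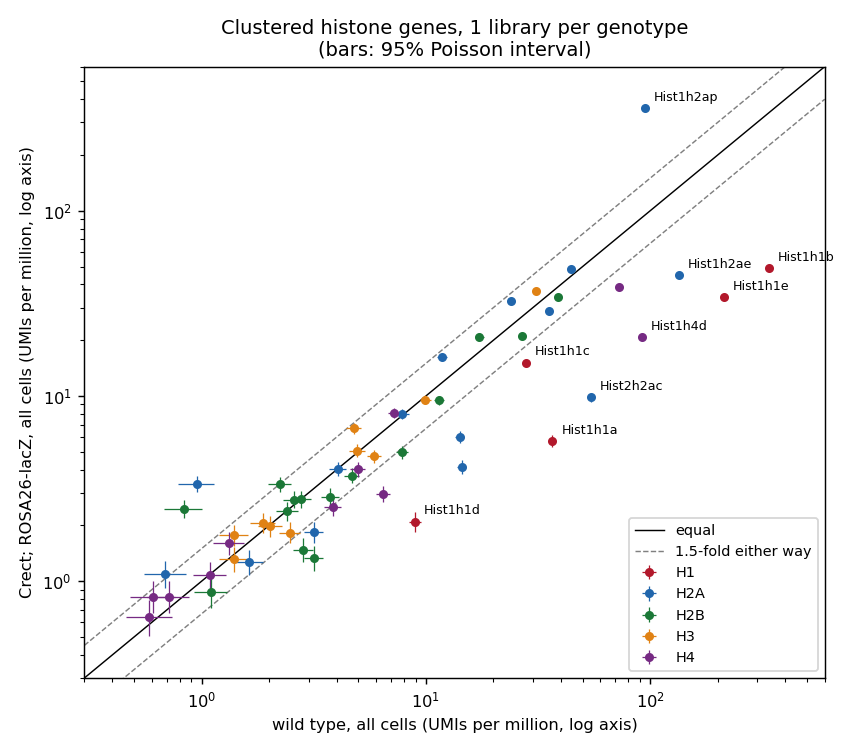
Level of each member in the wild-type library (x axis, CPM, log scale) against the Crect; ROSA26-lacZ library (y axis, CPM, log scale), coloured by histone class, with 95% Poisson intervals that cover counting error only. Of the 6 H1 genes, 5 lie below the dashed 1.5-fold lines, Hist1h2ap lies above them, and 10 of 12 H3 genes lie between them.

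Mesenchyme-like cells held 77.9% of the wild-type and 83.2% of the Crect; ROSA26-lacZ member UMIs, so these ratios are largely those of mesenchyme-like cells. Of the 17 members higher in wild type, 9 had 50 UMIs in both libraries in ectoderm-like cells, of which 8 stood at least 1.5-fold higher in wild type there. In endothelium-like cells it was 5 of 5, and in erythroid-like cells 1 of 3, with a lowest ratio of 1.04. Hist1h2ap stood 2.97-fold higher in Crect; ROSA26-lacZ in ectoderm-like cells, 3.15-fold in endothelium-like cells and 2.18-fold in erythroid-like cells. Within mesenchyme-like cells called S phase, 38 members had 50 UMIs in both libraries. Of these, 13 stood at least 1.5-fold higher in wild type and 4 in Crect; ROSA26-lacZ, against 8.87% and 2.63% of the 11100 genes measured there. Only Hist1h2ap was also among the 4 higher in Crect; ROSA26-lacZ over all cells, since the other 3 had too few UMIs in S. The rest were Hist1h2ak (29.3 CPM in wild type and 48.8 in Crect; ROSA26-lacZ), Hist1h2af (13.8 and 21.6) and Hist1h2bl (2.26 and 3.46). The 4 members higher in Crect; ROSA26-lacZ over all cells shared a median of 80.1% of their 50-base words with other members and the 17 higher in wild type over all cells 35.3%. The 35 within 1.5-fold shared a median of 51.0%. With 1 library each, genotype and library cannot be told apart, and the part of sequence sharing or of A-rich stretches in these ratios was not tested.

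To describe how the members follow the cell cycle, each cell was called G1, S or G2/M from gene lists that hold no histone gene, and UMIs were summed per library and phase. In mesenchyme-like cells, the summed members rose from 506 CPM in G1 to 1706 in S and 1781 in G2/M in wild type, and from 358 to 1133 and 1111 in Crect; ROSA26-lacZ. Both libraries stepped up between G1 and S, and their G2/M levels stayed close to the S levels. The fits below treat the 2 libraries as the replicates of a phase or tissue, with library as a block. Their p-values thus measure how far changes, not levels, differ between 2 libraries that also differ in genotype. The phase fit left 2 residual degrees of freedom, each fit of cell groups 1 and the fit of phase by tissue 5. Spread was therefore borrowed across genes, and entirely so in the endothelium-like, erythroid-like and Gabrp-gated comparisons below. A small p-value does not measure agreement between replicates for that gene alone. A member was called where the adjusted p of edgeR's quasi-likelihood test (Benjamini-Hochberg over all genes tested) was under 0.05 and the change at least 1.5-fold.

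Between S and G1, 29 of the 60 members tested were higher, 2 lower and 29 not called, where 5.46% of all 14072 genes tested were higher and 2.89% lower. The members' median log2 change was 0.74, against -0.02 over all genes tested. All 5 tested H1 genes rose, with 12 of 18 H2A genes, 9 of 16 H2B genes and 3 of 11 H4 genes. Of the 10 H3 genes 0 were called by edgeR, and 3 were higher at an unadjusted p under 0.05. These 3, Hist1h3a (log2 0.48), Hist1h3e (0.28) and Hist1h3c (0.24), also had an adjusted p under 0.05 (edgeR). They were not called because they changed less than 1.5-fold. The class medians were 2.46 for H1, 1.76 for H2A, 0.74 for H2B, 0.54 for H4 and 0.24 for H3 on the log2 scale. The largest change was that of Hist1h2ap, which went from 13.8 CPM in G1 to 118 in S in wild type and from 21.2 to 517 in Crect; ROSA26-lacZ, a log2 change of 4.25 ± 0.13 (SE; adjusted p = 3.09e-17, edgeR). Hist1h1b went from 31.3 to 489 CPM in wild type and from 5.63 to 70.9 in Crect; ROSA26-lacZ, a log2 change of 3.93 ± 0.06 (adjusted p = 2.54e-22, edgeR). Hist1h1b thus rose in both libraries, from starting levels that differed. Of the H2A genes with a mean of 5 CPM or more, Hist1h2al, Hist1h2af, Hist2h2ac and Hist1h2ak rose by log2 3.59, 3.26, 3.13 and 2.75, and Hist2h2ac went from 7.90 to 66.6 CPM in wild type and from 1.44 to 13.3 in Crect; ROSA26-lacZ.

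The other H1 genes rose less than Hist1h1b. Hist1h1e went from 42.4 to 244 CPM in wild type and from 9.28 to 40.7 in Crect; ROSA26-lacZ, a log2 change of 2.46 ± 0.07. Hist1h1c had the lowest H1 change, log2 0.60 ± 0.12 (adjusted p = 0.000441, edgeR), from 13.5 to 26.3 CPM in wild type and from 11.4 to 12.7 in Crect; ROSA26-lacZ, so most of its change came from the wild-type library. Among H4 genes, Hist1h4d rose by log2 1.84 and Hist1h4i by 0.98, the latter from 40.6 to 79.7 CPM in wild type and from 21.8 to 40.9 in Crect; ROSA26-lacZ. Hist1h3c, the H3 gene with the most UMIs, went from 24.5 to 29.6 CPM in wild type and from 31.4 to 35.5 in Crect; ROSA26-lacZ, and its log2 change of 0.24 ± 0.06 was below the fold required. Hist1h2ag, Hist1h2bk and Hist1h4b, well captured in all phases, changed by log2 0.16, 0.13 and 0.09 and were not called.

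Members on both sides of a shared promoter window had the following changes between S and G1. Hist1h2ae rose by log2 1.88 ± 0.11, whereas Hist1h2bg, whose window shares 279 bases with it, had a log2 change of 0.65 ± 0.26 that was not called (adjusted p = 0.0573, edgeR). Hist1h2ak rose by 2.75 and its partner Hist1h2bn by 1.01, and Hist1h2an rose by 2.23 and its partner Hist1h2bp by 1.01. Hist1h2ag and its partner Hist1h2bj were both not called, at 0.16 and 0.46. The difference within a pair was not tested.

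**Figure D2:**
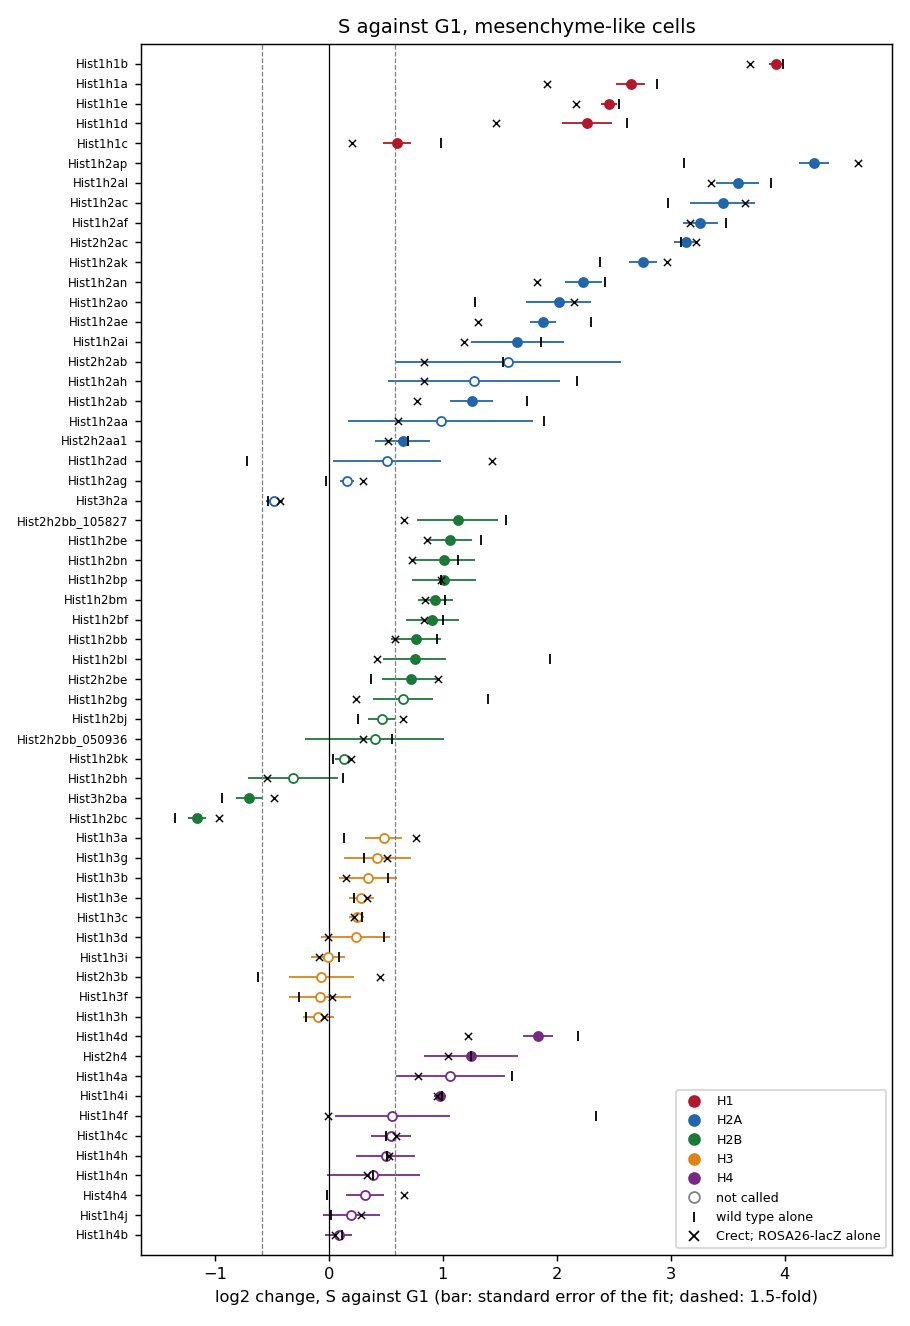
The log2 change of S against G1 in mesenchyme-like cells for each member tested, by class, with the standard error of the fit as a bar, filled where called, and the value of each library alone as a tick (wild type) or a cross (Crect; ROSA26-lacZ). H1 and many H2A genes lie to the right, the H3 genes lie between the dashed 1.5-fold lines, and Hist1h2bc and Hist3h2ba lie to the left of them.

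The 2 members called lower in S than in G1 were the H2B genes Hist1h2bc and Hist3h2ba. Hist1h2bc went from 51.7 CPM in G1 to 20.0 in S in wild type and from 32.1 to 15.98 in Crect; ROSA26-lacZ, a log2 change of -1.16 ± 0.08 (adjusted p = 9.15e-11, edgeR). Hist3h2ba went from 17.4 to 8.94 CPM in wild type and from 11.7 to 8.13 in Crect; ROSA26-lacZ, a log2 change of -0.70 ± 0.12 (adjusted p = 6.51e-05, edgeR). Both libraries were lower in S for both genes. Hist3h2a, the H2A neighbour of Hist3h2ba, had a log2 change of -0.48 ± 0.07, below the fold required, and 5 others had changes from -0.31 to -0.01 that were not called. The 2 members that fell both carry a polyadenylation signal past the stop codon, as do 10 of the 27 members with a coding transcript that rose and 5 of the 27 that were not called. Of the 27 that rose, 8 were annotated with under 30 bases of 3′ untranslated region, as were 5 of the 27 not called and 0 of the 2 that fell. That leaves little room to find a signal.

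Between G2/M and G1, 41 of 60 members were higher and 1, Hist1h2bc, was lower (log2 -1.17), against 5.11% and 6.88% of all genes. The median log2 change was 1.03. All 5 H1 genes, 16 of 18 H2A, 11 of 16 H2B, 6 of 11 H4 and 3 of 10 H3 genes rose. Hist1h3c went from 24.5 to 42.7 CPM in wild type and from 31.4 to 49.2 in Crect; ROSA26-lacZ (log2 0.75 ± 0.06, adjusted p = 3.65e-10, edgeR), and Hist1h2ag rose by 0.66. Between G2/M and S, a contrast added after the data were seen, 4 members were higher and 1 lower, against 2.15% and 5.02% of all genes. The 4, chosen after their values were seen, were Hist2h2bb (of the 2 genes with this symbol, the one with the ID ENSMUSG00000105827, log2 0.99), Hist1h2bh (0.87), Hist1h3g (0.64) and Hist2h3b (0.60), and the 1 lower was Hist1h4j (-0.65). All of them stood at low levels, at most 4.05 CPM in S or G2/M of either library.

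**Figure D3:**
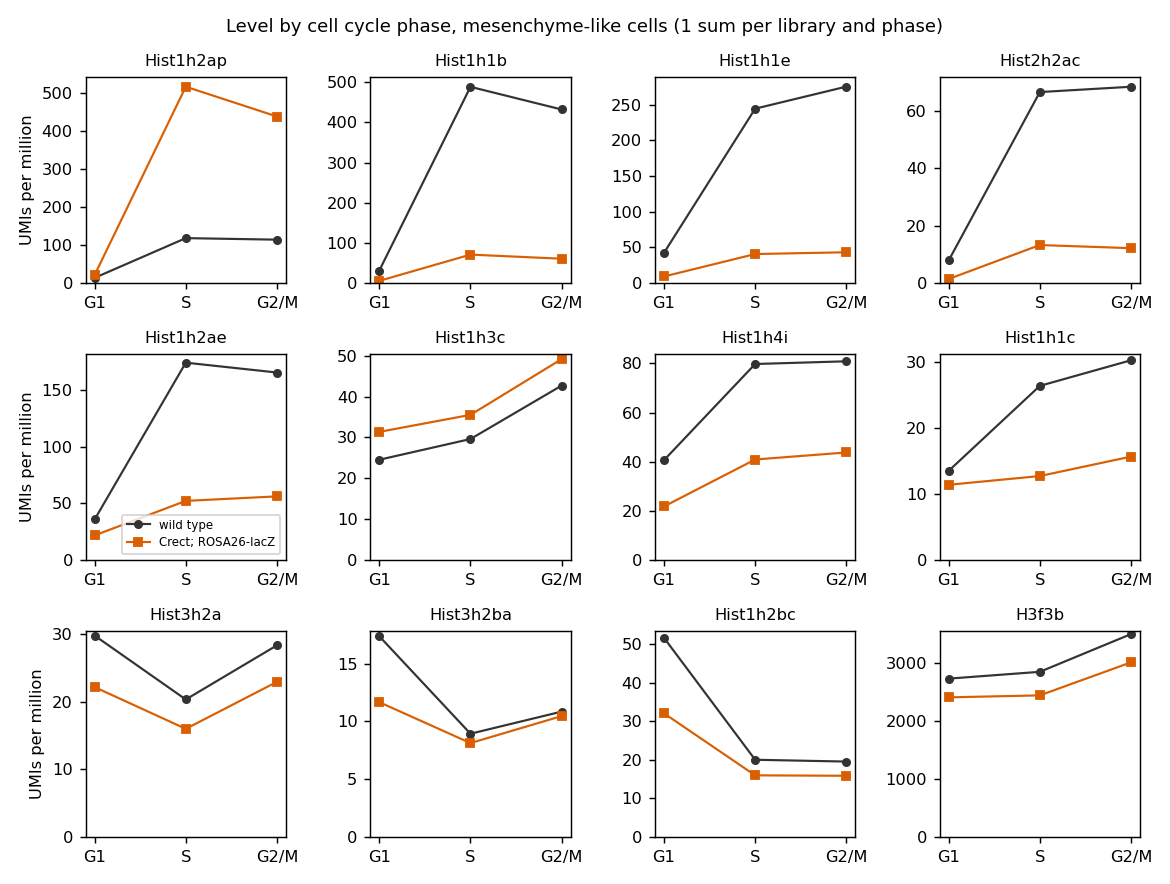
Level (y axis, CPM, from 0) in mesenchyme-like cells called G1, S and G2/M for 11 members and the replication-independent H3f3b, 1 sum per library and phase, with wild type as circles and Crect; ROSA26-lacZ as squares. Hist1h2ap and Hist1h1b step up at S and stay up in G2/M in both libraries, and Hist1h2bc steps down.

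Genes around the family moved as follows. Of 25 genes of histone processing and chaperoning, 8 rose from G1 to S and 0 fell (edgeR). With no minimum fold, 19 were higher and 0 lower at an adjusted p under 0.05 (edgeR), the same numbers as at an unadjusted p under 0.05. The 8 called genes included the histone chaperone gene Asf1b (log2 2.58), the chromatin assembly genes Chaf1a (1.46) and Chaf1b (1.32) and Slbp (1.04). The level of Slbp went from 208 to 410 CPM in wild type and from 157 to 322 in Crect; ROSA26-lacZ. From S to G2/M, Slbp fell by 0.82 and Chaf1b fell by 1.45 on the log2 scale, while Zfp473, a processing factor gene, rose by 1.07. Zfp473 was hardly captured, going from 0.415 to 0.999 CPM in wild type and from 0.692 to 1.34 in Crect; ROSA26-lacZ. Of 10 replication-independent histone genes, which are expressed outside S phase too, 0 were called between S and G1 by edgeR, as none changed 1.5-fold. With no minimum fold, 7 of these 10 genes were higher and 1 lower at an adjusted p under 0.05 (edgeR), and 7 and 2 at an unadjusted p under 0.05. The log2 changes of the 10 genes were 0.51 (H2afx), 0.47 (H2afz), 0.35 (H2afy), 0.19 (H1fx), 0.12 (H1f0), 0.08 (H2afy2), 0.07 (H3f3b), 0.03 (H2afj), -0.06 (H3f3a) and -0.09 (H2afv). Between G2/M and G1, H2afx (1.78), H1f0 (0.90), H1fx (0.77) and H2afz (0.66) rose. Of these 10 genes, H1fx differed most between the libraries, at 102.0 CPM in wild type and 155.5 in Crect; ROSA26-lacZ. H3f3a followed, at 2643 and 3338 CPM.

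At 5000 UMIs per cell, 89.4% of wild-type mesenchyme-like cells in G1 held a member UMI (95% Clopper-Pearson interval 87.3 to 91.2), 95.9% in S and 96.5% in G2/M. The shares in Crect; ROSA26-lacZ were 77.3% (74.8 to 79.6), 91.5% and 94.8%. Without thinning the G1 shares were 97.7% and 94.5%. The mean number of member UMIs per thinned cell was 2.51 in G1, 8.15 in S and 8.90 in G2/M in wild type and 1.79, 5.35 and 5.61 in Crect; ROSA26-lacZ. Cells under 5000 UMIs were left out, 9 to 14 per phase and library except 4 in S of Crect; ROSA26-lacZ. No class of cells here lacks histone messages, so no background share could be set beside these. The intervals cover counting error only. Phase is a cut on a score, and 803 of 6210 wild-type and 787 of 5497 Crect; ROSA26-lacZ mesenchyme-like cells lay near a cut. Fitted without the library block, the test called 4 members higher and 0 lower in S, against 2.02% and 0.0853% of all genes, with Hist1h1b at an adjusted p of 0.314 (edgeR), since the libraries' own levels then entered the spread.

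Members differed between ectoderm-like and mesenchyme-like cells in both directions, and the largest differences among well-captured members were those of 2 neighbouring genes. Hist3h2ba was measured at 11.1 CPM in mesenchyme-like and 193 in ectoderm-like cells of wild type and at 9.99 and 203 in Crect; ROSA26-lacZ, a 19.2-fold difference (log2 4.26 ± 0.08, adjusted p = 6.05e-14, edgeR). Hist3h2a was measured at 26.2 and 93.4 CPM in wild type and at 20.8 and 88.0 in Crect; ROSA26-lacZ (log2 1.98 ± 0.07, adjusted p = 3.36e-11, edgeR). Both libraries gave nearly the same levels. The genes, which encode an H2B and an H2A, are the only members on chromosome 11, at chr11:58948920-58949533 and chr11:58954685-58956830 on the plus strand, with 5151 bases between them. Over ectoderm-like clusters with 50 cells or more, Hist3h2ba ranged from 96.1 to 241 CPM in wild type and from 158 to 230 in Crect; ROSA26-lacZ. Over mesenchyme-like clusters it ranged from 8.05 to 25.5 and from 6.67 to 25.1, so the ranges did not overlap. Both ectoderm-like minima came from the same cluster (64 and 76 cells), which scored 0.217 on ectoderm markers and 0.144 on mesenchyme markers. Smaller clusters also held Hist3h2ba, at 63.2 and 81.2 CPM in crest glia-like cells (30 and 23 cells), 239 and 345 in neuron-like cells (2 and 13 cells) and 70.4 and 80.0 in an unnamed cluster (45 and 17 cells).

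In all, 5 of the 63 members tested were higher in ectoderm-like cells and 34 lower, where 17.8% of all 15233 genes tested were higher and 13% lower. The median log2 difference was -0.67 over the members and -0.03 over all genes tested. The other members higher were Hist2h2be (log2 1.30), Hist2h3c2, which was at 0.420 CPM in ectoderm-like cells of wild type and 0.392 in those of Crect; ROSA26-lacZ, and Hist1h2bc. Hist1h2bc was measured at 23.6 and 36.2 CPM in wild type and at 18.6 and 31.8 in Crect; ROSA26-lacZ (log2 0.72 ± 0.08), but its difference was -0.06 among cells called S. The lower members were 9 of 12 H3 genes, 9 of 16 H2B, 8 of 18 H2A, 4 of 5 H1 and 4 of 12 H4. Among members with a mean of 5 CPM or more, Hist1h2bk fell most, by 1.72 on the log2 scale, from 21.7 to 6.41 CPM in wild type and from 24.4 to 7.32 in Crect; ROSA26-lacZ. Hist1h2ag (-1.40), Hist1h4b (-1.36), Hist1h2ab (-1.35), Hist1h3c (-1.34) and Hist1h2bj (-1.23) followed, and Hist1h1b stood at -1.09. Of the 5 members higher in ectoderm-like cells, 4 have a polyadenylation signal past the stop codon, against 4 of the 32 lower and 10 of the 22 uncalled members with a coding transcript. However, 0 of the 5, 6 of the 32 and 8 of the 22 were annotated with under 30 bases of 3′ untranslated region. That leaves little room to find a signal.

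The phase make-up of the tissues differed, with 34.8% and 36.8% of ectoderm-like cells called G1 in wild type and Crect; ROSA26-lacZ, against 16.5% and 22.7% of mesenchyme-like cells. Among cells called S alone, Hist3h2ba had a log2 difference of 4.31 and Hist3h2a of 1.80, close to the values over all phases. Within ectoderm-like cells, Hist3h2ba went from 291 CPM in G1 to 154 in S in wild type and from 277 to 181 in Crect; ROSA26-lacZ. Of the replication-independent histones, H2afj was higher in ectoderm-like cells (log2 0.80) and H2afy2 lower (-0.74). Without the library block, 5 members were higher and 10 lower, against 12.8% and 7.95% of all genes, and DESeq2 called 4 higher and 21 lower, against 13.4% and 8.88%.

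**Figure D4:**
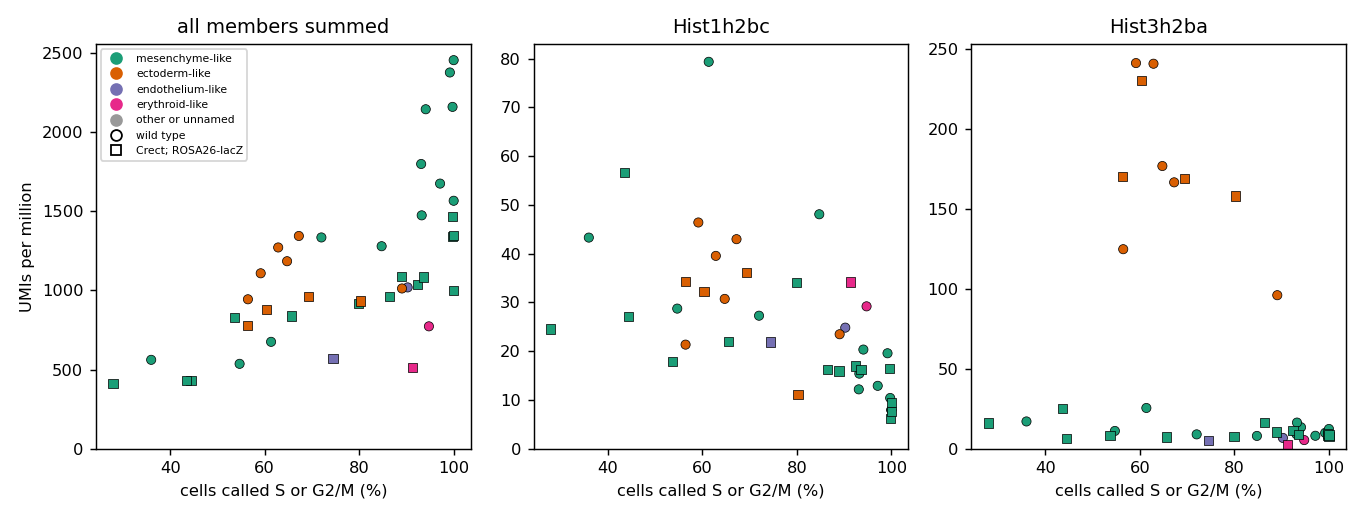
Share of cells called S or G2/M (x axis, %) against level (y axis, CPM, from 0) for clusters with 50 cells or more in a library, for all members summed, Hist1h2bc and Hist3h2ba, coloured by tissue, with wild type as circles and Crect; ROSA26-lacZ as squares. The summed members lie between 412 and 2453 CPM over mesenchyme-like clusters and reach their highest level in each library in clusters with nearly all cells called S or G2/M, whereas Hist3h2ba is higher in the ectoderm-like clusters than in the other clusters drawn, which leave out those under 50 cells.

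The step at S was present in ectoderm-like cells too. Its size was called different for 2 of 54 members tested, where 0.501% of all genes had a larger and 0.243% a smaller change in ectoderm-like cells. The median difference of log2 changes, ectoderm-like minus mesenchyme-like, was 0.44 over the members and 0.006 over all genes. By class it was 0.89 for H3, 0.66 for H4, 0.18 for H2B, 0.04 for H2A and -0.36 for H1. The lack of a call thus does not show an equal step in both tissues. Hist1h3c rose more in ectoderm-like cells (difference of log2 changes 1.05 ± 0.20, adjusted p = 0.0189, edgeR), from 5.92 to 13.5 CPM in wild type and from 6.26 to 16.1 in Crect; ROSA26-lacZ. Hist1h1b rose less (-0.89 ± 0.19, adjusted p = 0.0336, edgeR), from 26.1 to 217 CPM in wild type and from 4.75 to 30.7 in Crect; ROSA26-lacZ.

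In endothelium-like cells, 29 of 59 members were lower than in mesenchyme-like cells and 0 were higher, against 21.3% and 18.3% of all genes. At an unadjusted p under 0.05 in edgeR and with no minimum fold, 1 member (Hist1h2bc, log2 0.34) was higher and 38 were lower, and DESeq2 called 0 higher and 16 lower, against 14.4% and 13.3% of all genes. Without the library block, 0 of 59 members were higher and 11 lower, against 2287 and 2263 of all 14617 genes. With the block, the median log2 difference was -0.87 over the members and -0.07 over all genes tested. Hist1h3e (-1.41), Hist1h4b (-1.36), Hist1h4d (-1.32) and Hist1h3c (-1.19) led among well-captured members, and Hist1h4d went from 102 to 33.4 CPM in wild type and from 22.2 to 9.02 in Crect; ROSA26-lacZ. The lower members were 13 of 16 H2B genes, 6 of 10 H3, 5 of 17 H2A, 4 of 11 H4 and 1 of 5 H1. Hist1h2bn had 2 UMIs in endothelium-like cells of both libraries together, against 473 in mesenchyme-like cells. Hist1h2ae was also lower, at 152 CPM in mesenchyme-like and 91.5 in endothelium-like cells of wild type and 49.3 and 22.5 in Crect; ROSA26-lacZ (log2 -0.68). Hist1h1b, Hist1h2ap and Hist1h1e had log2 differences of -0.40, -0.36 and -0.23, below the fold required.

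In erythroid-like cells, the embryonic red cells, the direction of the family depended on the scaling. With TMM scaling, 34 of 63 members were higher than in mesenchyme-like cells and 1, Hist1h3h, was lower, against 17.6% and 21.8% of all genes, with a median log2 difference of 0.94 over the members and -0.23 over all genes tested. Globin genes took 60.8% and 58.1% of the UMIs of erythroid-like cells in wild type and Crect; ROSA26-lacZ. Scaled by total UMIs, 4 were higher and 33 lower, against 3.71% and 77% of all genes, with medians of -0.95 and -2.11. With globin genes left out of the total, 17 were higher and 5 lower, against 9.33% and 40.6% of all genes, with medians of 0.36 and -0.80. A change of scaling shifts the log2 differences of all genes by nearly the same amount. The members' median therefore lay above that of all genes under each scaling, which is 1 result and not 3. Hist1h1c was higher under all 3 scalings (log2 2.79, 0.93 and 2.23), at 27.0 CPM in mesenchyme-like and 39.2 in erythroid-like cells of wild type and 14.1 and 37.7 in Crect; ROSA26-lacZ. Hist1h4i was also higher under all 3 (2.46, 0.60 and 1.90), whereas Hist1h2bc (2.43, 0.57 and 1.87) was not called by total UMIs. Phase make-up differed too, with 94.8% of erythroid-like cells called S or G2/M in wild type and 91.3% in Crect; ROSA26-lacZ. Of mesenchyme-like cells, 1025 of 6210 and 1247 of 5497 were called G1. Among cells called S, 6 of 55 members were higher and 1 lower with TMM scaling, against 8.64% and 10.4% of all genes, on 38 and 27 erythroid-like cells.

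**Figure D5:**
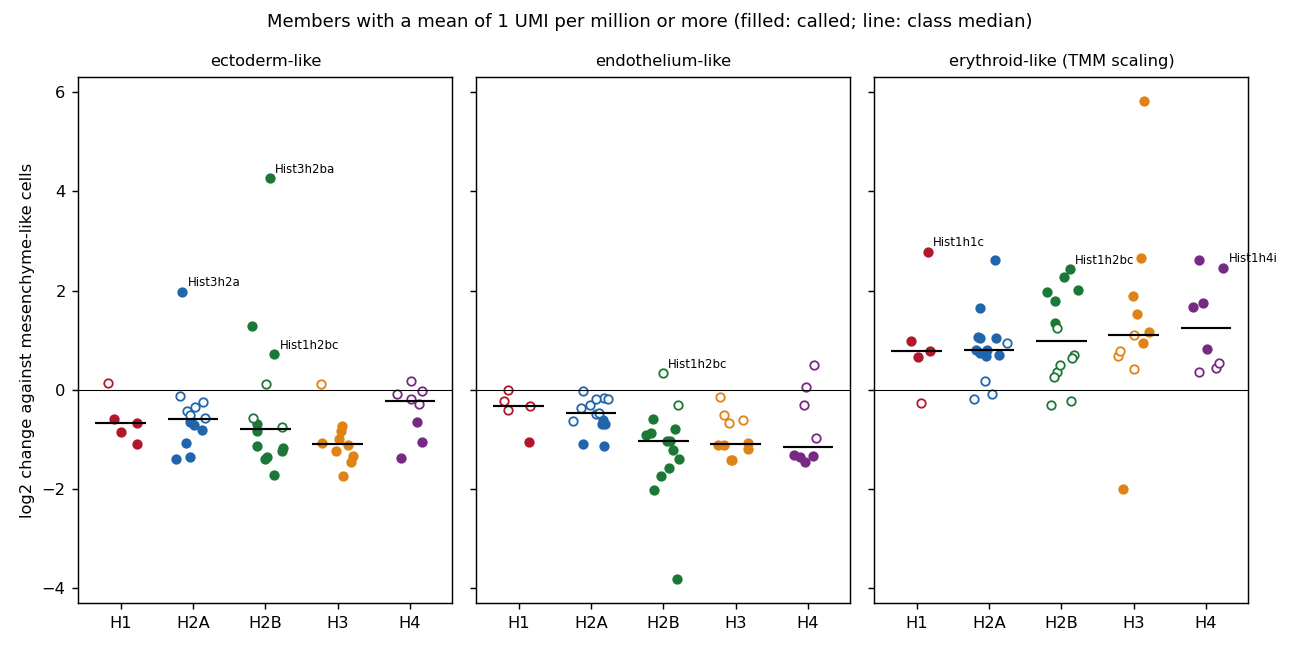
The log2 difference from mesenchyme-like cells (y axis) for members with a mean of 1 CPM or more, by histone class (x axis) in ectoderm-like, endothelium-like and erythroid-like cells, filled where called and with the class median as a line. Hist3h2ba and Hist3h2a stand apart in ectoderm-like cells, endothelium-like medians lie below 0, and erythroid-like medians lie above 0 with TMM scaling but the members' median turns to -0.95 when scaled by total UMIs.

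Small gates within the ectoderm-like cells gave few calls. Cells of ectoderm-like and neuron-like clusters that passed a gate of 3 neuron markers numbered 10 and 18, and none of 46 members was called by edgeR or by DESeq2 against the other ectoderm-like cells, with 4 at an unadjusted p under 0.05, against 0.885% of genes higher and 0.223% lower. Cells with a UMI of the periderm marker Gabrp numbered 50 and 39, and 0 of 44 members were higher and 2 lower by edgeR, against 8.19% and 5.85% of all genes, with 3 higher and 7 lower at an unadjusted p under 0.05. Hist1h4d went from 92.4 to 50.1 CPM in wild type and from 18.9 to 18.6 in Crect; ROSA26-lacZ (log2 -0.71 ± 0.18, adjusted p = 0.000947, edgeR), so the wild-type library alone carried it. Hist1h2bb had 0 UMIs against 71 in the other ectoderm-like cells, which is at least 1.74-fold lower at a floor of 3 UMIs over the group. DESeq2 called neither.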

How the data were processed

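The deposited files hold UMI counts per gene and cell, made by the authors with Cell Ranger 2.0 against mm10, per the submitters' processing notes. Counts were used unscaled. The members and lists were chosen with earlier results of these data known. Cells with over 10% of UMIs in mt- genes were removed. Depth was 126296568 UMIs in wild type and 126395819 in Crect; ROSA26-lacZ, and intervals cover counting error only. Scanpy 1.11.5 clustered the cells (2000 genes, 30 components, 15 neighbours, Leiden resolution 1) into 29 clusters without histone or cycle genes. Doublets were kept, and removal of the highest 6% of Scrublet scores was an alternative. Of the clusters, 2 with markers of a second class were left unnamed by a rule set after seeing the data. That rule kept an ectoderm-like cluster of 64 and 76 cells that scored 0.217 on ectoderm markers and 0.144 on mesenchyme markers. UMIs were summed per library and class or phase, and tested with edgeR 4.0.16 (quasi-likelihood test, TMM, filterByExpr, library as block, Benjamini-Hochberg over all genes), after tests on simulated data. The labels do not say that a library stands for separate animals beyond its pool. The p-values measure how far changes differ between the 2 libraries, with spread borrowed across genes. DESeq2 1.42.0, other folds, filters, scalings and cell sets were alternatives. Named genes were the 3 members with most UMIs per class, up to 6 called members per direction with a mean of 5 CPM or more, members without a UMI, tested replication-independent histones and up to 4 processing genes per direction; others were named after their values were seen. Stem-loops came from GENCODE vM21 transcripts. Protein sequences were not used here.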

Additional observations from a re-analysis of the deposited data

Results flagged for a closer look

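The change from G1 to S of 2 members differed between ectoderm-like and mesenchyme-like cells by a test of the difference itself (edgeR interaction term, adjusted over all genes tested). Hist1h3c had a larger log2 change in ectoderm-like cells by 1.05 (adjusted p = 0.0189). Its G2/M level was 18.5 CPM in ectoderm-like cells of wild type and 22.9 in those of Crect; ROSA26-lacZ. Hist1h1b had a smaller log2 change in ectoderm-like cells, with a difference of -0.89 (adjusted p = 0.0336). Its G2/M level was 219 CPM in ectoderm-like cells of wild type and 41.1 in those of Crect; ROSA26-lacZ. Both libraries gave the same direction for both genes.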

How the results depend on the processing

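Phases and tissues were compared within each library, with library as a block. Without the library block, S against G1 gave 4 of 60 members higher and 0 lower, against 284 and 12 of all 14072 genes. G2/M against G1 gave 4 and 0, against 303 and 53 genes. Ectoderm-like cells gave 10 of 63 members lower, against 1211 of 15233 genes, and endothelium-like cells 11 of 59, against 2263 of 14617. Erythroid-like cells gave 20 of 63 higher, against 2334 of 14325 genes, and Gabrp-gated cells 0 of 44 lower, against 173 of 12388. With a fold of 2 or more, S against G1 gave 1 of 60 members lower, against 113 of 14072 genes. Ectoderm-like cells then gave 21 of 63 lower, against 1269 of 15233, and Gabrp-gated cells 1 of 44 lower, against 469 of 12388. With no minimum fold, G2/M against G1 gave 2 of 60 members lower, against 2939 of 14072 genes. Endothelium-like cells then gave 1 of 59 higher, against 4105 of 14617, and Gabrp-gated cells 2 of 44 higher, against 1260 of 12388. DESeq2 gave 21 of 65 members lower in ectoderm-like cells, against 1508 of 16974 genes, and 16 of 65 in endothelium-like cells, against 2229 of 16709. It gave 0 of 65 lower in erythroid-like cells, against 1690 of 16567, and 0 of 61 in Gabrp-gated cells, against 248 of 14403. Among cells called S, which were fewer, ectoderm-like cells gave 3 of 54 members higher, against 1896 of 13356 genes. Endothelium-like cells gave 14 of 52 lower, against 2172 of 12941. Erythroid-like cells gave 6 of 55 higher, against 1084 of 12553, and Gabrp-gated cells 1 of 19 lower, against 97 of 9496. Hist1h2bc in ectoderm-like cells called S turned to -0.057. In ectoderm-like cells, G2/M against G1 gave 3 of 38 members lower, against 599 of 11847 genes. Without TMM, erythroid-like cells gave 4 of 63 members higher and 33 lower with a median of -0.95, against 532 and 11028 of 14325 genes. These log2 differences turned: Hist1h1e -1.22, Hist1h2ae -0.84, Hist1h2ap -1.16, Hist1h2bm -0.57, Hist1h3c -0.73, Hist1h3e -1.49, Hist1h4b -1.54, Hist1h4d -1.07 and Hist3h2ba -1.28. With globin also left out, 17 of 63 were higher and 5 lower, against 1336 and 5814 of 14316 genes. The neuron-gated median turned to 0.038 with high Scrublet scores removed, 0.11 without Crect; ROSA26-lacZ and 0.41 without wild type, and the Gabrp-gated median was -0.31 without Crect; ROSA26-lacZ and turned to 0.21 without wild type. The shares of cells with a member UMI in G1, S and G2/M were 97.7%, 99.5% and 99.8% in wild type and 94.5%, 99.0% and 99.6% in Crect; ROSA26-lacZ without thinning, and 75.0%, 88.0% and 91.5% and 62.2%, 82.96% and 86.9% at 3000 UMIs, so depth sets these shares. Neuron-gated cells called S were too few (1 and 3) and were not run. The cause of the other changes was not tested.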
